A study of Rattus norvegicus and Mus musculus with 17 samples.

Results

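Akr1b8, Akr1c18 and Srd5a1 are 3 genes for enzymes that reduce steroids and other carbonyl compounds, and they are described here in liver tumours, regenerating liver and their control livers. They were chosen by symbol among the 11532 gene symbols that the study's 3 expression tables list, because their levels in these same comparisons were already known to differ, so their differences are given as descriptions with no test. Each table lists 2 of the 3 genes. Akr1c18 and Srd5a1 are among the 4649 genes of the mouse tumour table, and Akr1b8 and Srd5a1 are among the 9082 genes of the rat hepatoma table and the 2093 genes of the rat regeneration table. A gene that a table does not list has no value here for those libraries.

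RNA sequencing libraries were compared in a mouse and a rat model of liver cancer and in a rat model of liver growth without cancer. Male C57BL/6 mice received diethylnitrosamine (DEN), a DNA-alkylating liver carcinogen, at 50 mg/kg when 14 days old, and 30 days later TCPOBOP, an agonist of the nuclear receptor CAR that promotes liver tumours, at 2 mg/kg. Their livers were taken at 8 months with tumours (n = 3) or at 5 months before tumours were present (n = 3), so both mouse groups carry both agents, and age and tumour cannot be told apart. Male ACI rats of 10 weeks had MH3924a cells, a single transplantable Morris hepatoma line, placed in the liver and were examined 2 weeks later (n = 4), or lost part of the liver at 10 to 12 weeks and were examined 24 hours later (n = 4). Untreated ACI rats of matched age (n = 3), which had no sham operation, are the controls of both rat comparisons. The labels do not state what share of each tumour sample was tumour, and they do not state that each library came from its own animal, so any p-value measures the spread between these libraries.

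Aldo-keto reductases are soluble enzymes that use NADPH to reduce aldehydes and ketones of sugars, lipids, prostaglandins and steroids. The AKR1C enzymes act mainly as hydroxysteroid dehydrogenases, and Akr1c18 in mice encodes the 20-alpha-hydroxysteroid dehydrogenase that turns progesterone into a weaker progestin. AKR1B enzymes include aldose reductase, and Akr1b8 encodes a close relative of it that reduces aldehydes from lipids and retinaldehyde. Srd5a1 belongs to another family: it encodes the membrane-bound steroid 5-alpha reductase type 1, which in liver begins the breakdown of androgens, progestins and glucocorticoids, while the aldo-keto reductase Akr1d1 reduces the same double bond to the 5-beta form.

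Libraries differed little in depth. Relative to the first library of the reference group, which was set at 1, the depth implied by the steps of low values lay between 0.943 and 1.21 in the mouse libraries and between 1.02 and 1.18 in the rat libraries. Levels are in RPKM, reads scaled to transcript length and to library size, which allows genes of different length to be compared within a table. No gene is listed whose deposited p-value reached 0.05, so most listed genes differ, and the groups of all 3 genes do not overlap in any table that lists them. That held for 28.6% of all listed genes in the upward and 71.4% in the downward direction in the mouse table, for 86.9% and 11.4% in the hepatoma table, and for 87.4% and 5.40% in the regeneration table.

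Some libraries stood apart from the rest of their group. Summed over the 11 listed hepatocyte markers, Morris hepatoma libraries 1 and 2 held 1238 and 109 RPKM, hepatoma libraries 3 and 4 held 29977 and 24674 RPKM, and control livers held 107474 to 133383 RPKM. Albumin (Alb) followed the same order, with 574, 19.0, 10943 and 10924 RPKM in the 4 hepatomas and 48189.7 to 67213 RPKM in the controls, so the last 2 hepatoma libraries held much more hepatocyte RNA than the first 2. In the mouse table the sum of the 6 listed hepatocyte markers moved the other way. It was 151566 to 170792 RPKM in livers with tumours, against 61942 to 75597 RPKM in livers before tumours. Of these 6 markers, 3 were higher, 1 lower and 2 neither at a limma adjusted p under 0.05. By the same rule 17.9% of all tested genes were higher and 49.5% lower. Alb averaged 83080 RPKM with tumours and 24699 RPKM before tumours. In such bulk samples, fewer cells of a type and less RNA per cell cannot be told apart.

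Akr1c18 (mouse GeneID 105349) was high in DEN livers with tumours and low in DEN livers before tumours. Its level was 331, 118 and 335 RPKM in the 3 libraries with tumours, against 0.701, 14.3 and 1.54 RPKM in the 3 libraries before tumours. All livers with tumours were above all livers before tumours, and before tumours the second library stood well above the other 2. The means were 262 ± 124 RPKM with tumours and 5.51 ± 7.62 RPKM before tumours (SD, n = 3 each), a ratio of 47.5, and the difference in log2(RPKM + 1) was 5.87 ± 0.85 (SE). Akr1c18 ranked 91st, 221st and 91st among the 4649 listed genes in the libraries with tumours, against 3722nd, 1466th and 3242nd in the libraries before tumours. Without the second library before tumours, or any other single library, the difference stayed between 5.25 and 6.83. The ratio of means depended on that second library: it was 233 without it, and 33.1 to 60.5 without any other single library.

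The gene lies on the minus strand of mouse chromosome 13, at chr13:4132615-4150654 (GENCODE M21, GRCm38). The build that the submitters used is not given in the sources used here. Since AKR1C genes are close copies of each other, reads could be assigned to the wrong copy. Of the 1151 stretches of 50 bases in its 1200-base transcript, 7 (0.608%) also occur in a transcript of another gene, Akr1cl, and none of the rest do.

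The neighbouring enzymes of its family did not share this pattern. Akr1c6, the main estradiol 17-beta-dehydrogenase of mouse liver, stood at 165, 247 and 103 RPKM with tumours, against 399, 487 and 607 RPKM before tumours, and fell (log2 difference -1.60 ± 0.31, limma adjusted p = 0.014). That call was lost without library 2 or library 3 before tumours (adjusted p of 0.055 and 0.063). The ratio of Akr1c18 to Akr1c6 was 2.00, 0.479 and 3.26 in livers with tumours, against 0.00176, 0.0294 and 0.00254 in livers before tumours. Akr1c18 thus exceeded Akr1c6 in 2 of the 3 livers with tumours and was far below it in every liver before tumours. Akr1c18 made up 41.0%, 17.0% and 46.1% of the summed RPKM of the 8 listed aldo-keto reductases with tumours, against 0.0629%, 1.22% and 0.128% before tumours. The sum itself was lower with tumours, at 807, 695 and 727 RPKM, against 1115, 1168 and 1208 RPKM before tumours.

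No rat gene is listed under the symbol Akr1c18. RefSeq gives Akr1c18 as an older symbol of rat Akr1c3 (GeneID 171516, chromosome 17), and that gene was low in the hepatoma. Akr1c3 had 0.691, 0.495, 0.671 and 0.816 RPKM in the 4 hepatomas, against 14.9, 10.6 and 2.10 RPKM in the 3 control livers. The groups did not overlap, and the fall on the log2 scale was -2.32 ± 0.54 (limma adjusted p = 0.015). The call was lost without control library 2 (adjusted p = 0.069). The gene is not listed for regenerating liver.

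**Figure D1:**
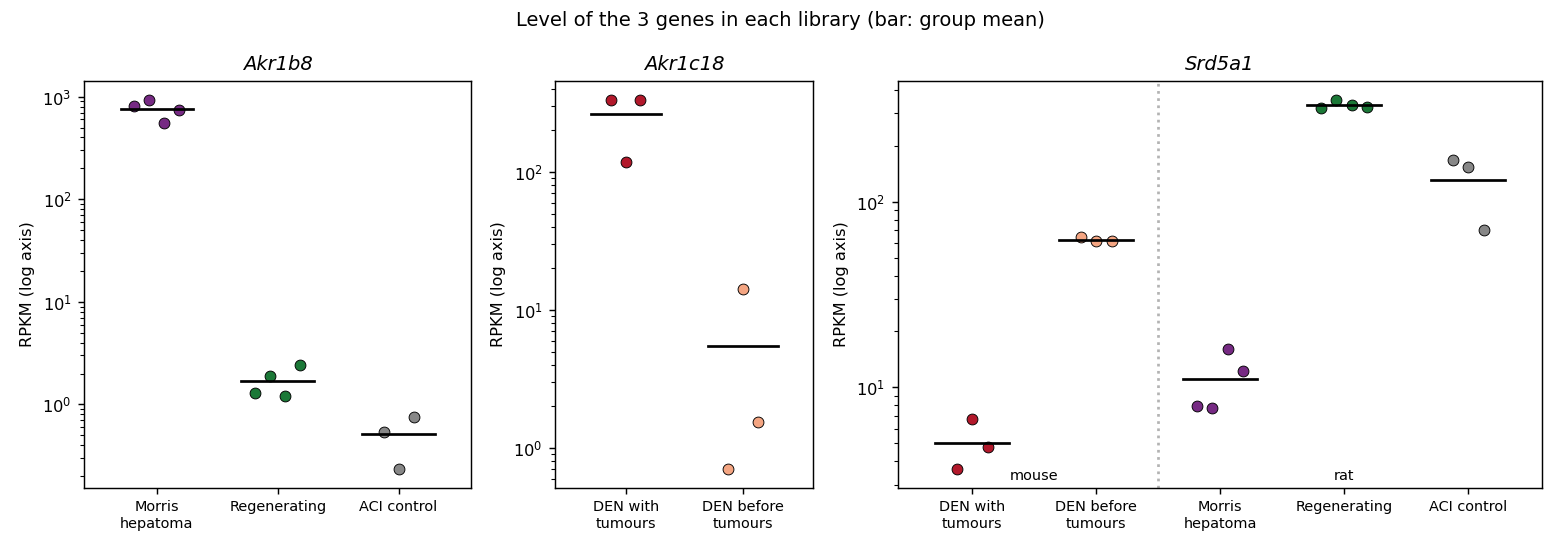
RPKM of Akr1b8, Akr1c18 and Srd5a1 in every library that lists them, on log axes with a separate scale in each panel; each point is 1 library and each bar a group mean. Srd5a1 is lower in both tumour groups and higher in regenerating liver, while Akr1c18 and Akr1b8 are higher in the tumour groups (means of 262 and 759 RPKM).

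Srd5a1 was the only one of the 3 genes listed in all 3 tables. It was lower in mouse livers with tumours and in the rat hepatoma, and higher in regenerating liver. In mice (GeneID 78925) it had 3.63, 6.72 and 4.78 RPKM in livers with tumours, against 64.4, 61.7 and 61.2 RPKM in livers before tumours. The means were 5.04 ± 1.56 RPKM with tumours and 62.5 ± 1.73 RPKM before tumours (SD, n = 3 each), a ratio of 0.0808, and the log2 difference was -3.42 ± 0.19 (SE). The 3 livers before tumours were close to each other, and all of them were far above the highest liver with tumours.

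In rats (GeneID 24950) Srd5a1 had 7.98, 7.74, 16.2 and 12.2 RPKM in the Morris hepatoma libraries. It had 318, 355, 332 and 324 RPKM in the regenerating livers. The controls had 168, 154 and 70.2 RPKM. The order was therefore regenerating liver, control liver and hepatoma, with no overlap between neighbours, and control library 3 was well below the other controls. The means were 11.0 ± 4.01 RPKM in hepatoma (n = 4), 332 ± 16.1 RPKM in regenerating liver (n = 4) and 131 ± 53.0 RPKM in controls (n = 3, SD). Hepatoma minus control was -3.41 ± 0.36 and regenerating minus control was 1.43 ± 0.27 in log2(RPKM + 1) (SE), and both differences use the same 3 controls. Without control library 3 the regenerating difference was 1.04. With library medians set equal, the differences were -5.08 for hepatoma and 0.81 for regenerating liver. The mean of regenerating liver was 30.1 times that of hepatoma (hepatoma minus regenerating, -4.85 ± 0.27 on the log2 scale).

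By rank, Srd5a1 was among the most abundant listed transcripts of regenerating liver. It ranked 19th to 23rd of 2093 listed genes in the regenerating livers, against 37th, 38th and 73rd in the controls. In the hepatoma table it ranked between 3765th and 5577th of 9082 listed genes in the hepatomas, against 362nd to 494th in the controls.

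Srd5a1 was set beside the hepatocyte markers in the libraries of both tumour tables, since the hepatoma libraries differed so much in them. Per 1000 RPKM of summed hepatocyte markers, Srd5a1 had 6.45, 70.9, 0.540 and 0.496 RPKM in hepatoma libraries 1 to 4, against 1.26, 1.27 and 0.653 RPKM in the controls. Libraries 1 and 2 were thus above every control on this scale and libraries 3 and 4 below every control. The value of library 2 rests on a marker sum of 109 RPKM. The part of hepatocyte content in the lower level of Srd5a1 was not tested. Leaving out hepatoma libraries 3 and 4 together, an alternative chosen after seeing the data, gave a log2 difference of -3.80 ± 0.40. In mice, Srd5a1 per 1000 RPKM of markers was 0.0212, 0.0437 and 0.0316 with tumours, against 1.04, 0.834 and 0.810 before tumours. There the summed markers were higher with tumours while Srd5a1 was lower.

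**Figure D2:**
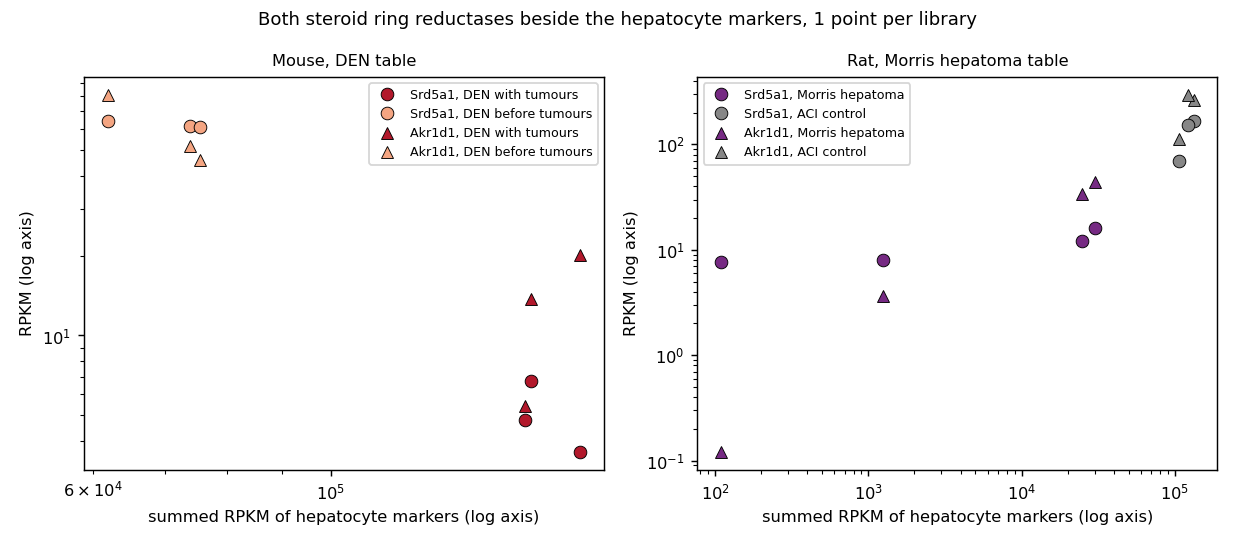
Level of Srd5a1 (circles) and Akr1d1 (triangles) against the summed RPKM of hepatocyte markers, 1 point per library, both axes logarithmic. In rats both genes are lowest where markers are lowest, but Srd5a1 stays near 7.74 RPKM in the library with 109 RPKM of markers, where Akr1d1 is at 0.120 RPKM; in mice livers with tumours hold more marker RNA and less of both genes.

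Akr1d1, the steroid 5-beta-reductase that is also needed for bile acid synthesis, is the counterpart of Srd5a1. It had 20.1, 13.8 and 5.41 RPKM in DEN livers with tumours, against 80.8, 51.8 and 46.0 RPKM before tumours, and fell (-2.22 ± 0.44, limma adjusted p = 0.021), a call that was lost without any 1 of the libraries before tumours (adjusted p of 0.052 to 0.081). The ratio of Srd5a1 to Akr1d1 was 0.180, 0.489 and 0.885 with tumours, against 0.798, 1.19 and 1.33 before tumours, and the groups overlapped by 1 library. In rats Akr1d1 had 3.68, 0.120, 44.2 and 34.0 RPKM in hepatomas, against 264, 294 and 112 RPKM in controls. That difference did not pass the threshold (-4.44 ± 1.46, limma adjusted p = 0.074), and it passed when hepatoma libraries 3 and 4 were left out (-6.50 ± 0.70, adjusted p = 0.00047). The ratio of Srd5a1 to Akr1d1 was 2.17, 64.5, 0.366 and 0.360 in hepatomas, against 0.636, 0.524 and 0.627 in controls, so it lay above the controls in the 2 libraries with few hepatocyte transcripts and below them in the other two.

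Akr1c14 encodes the 3-alpha-hydroxysteroid dehydrogenase that acts on the 5-alpha- and 5-beta-reduced steroids that Srd5a1 and Akr1d1 make. In mice it had 10.3, 18.4 and 11.2 RPKM with tumours, against 80.0, 57.0 and 60.5 RPKM before tumours, and fell (-2.25 ± 0.23, limma adjusted p = 0.00084). The ratio of Srd5a1 to Akr1c14 was 0.351, 0.366 and 0.426 with tumours, against 0.806, 1.08 and 1.01 before tumours, with no overlap. In rats Akr1c14 had 7.47, 3.50, 66.4 and 41.0 RPKM in hepatomas, against 445, 479 and 178 RPKM in controls, and fell (-4.22 ± 1.10, limma adjusted p = 0.031). That call was lost without hepatoma library 1 and without any 1 of the controls (adjusted p of 0.068 to 0.122).

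Of the other steroid 5-alpha reductase relatives, Srd5a3 and Tecr are listed. Srd5a3, which encodes a polyprenol reductase needed for protein glycosylation, went against Srd5a1 in the hepatoma. It had 21.9, 26.7, 20.3 and 26.9 RPKM in hepatomas, against 3.18, 2.26 and 3.75 RPKM in controls, and rose (2.63 ± 0.19, limma adjusted p = 2.9e-06). Srd5a1 was 0.364, 0.290, 0.798 and 0.455 times Srd5a3 in hepatomas, and it was 52.9, 68.3 and 18.7 times Srd5a3 in controls. In regenerating liver Srd5a3 had 4.70 to 7.06 RPKM, which did not pass the threshold (0.68 ± 0.17, limma adjusted p = 0.083), and Srd5a1 was 45.9 to 74.0 times as abundant. Mouse Tecr, an enoyl-CoA reductase of fatty acid elongation, had 243, 207 and 236 RPKM with tumours, against 352, 371 and 356 RPKM before tumours (-0.65 ± 0.14, limma adjusted p = 0.020). The call for Tecr was lost without library 2 or 3 with tumours or library 1 or 2 before tumours (adjusted p of 0.051 to 0.089), and its sign turned to 0.14 when all libraries were given the same distribution of values.

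Mouse Srd5a1 lies at chr13:69573449-69611442 on the minus strand (GENCODE M21, GRCm38), inside the span of Nsun2 on the opposite strand, with which it shares no exon bases. It shares 476 exon bases with Gm17108, a transcript on the same strand, and 428 of its 2595 stretches of 50 bases (16.5%) also occur there. Reads from that stretch cannot be told apart.

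Akr1b8 (rat GeneID 286921) had a larger log2 difference in the hepatoma than Srd5a1. In regenerating liver the order depended on the scale. There Akr1b8 had the smaller difference in log2(RPKM + 1), at 0.83 against 1.43. Its ratio of means to the controls was the larger, at 3.34 against 2.54. It had 807, 938, 553 and 738 RPKM in the Morris hepatomas. It had 1.29, 1.89, 1.20 and 2.43 RPKM in the regenerating livers. The controls had 0.537, 0.233 and 0.761 RPKM. The 3 groups did not overlap, and the gap between hepatoma and regenerating liver was far wider than that between regenerating liver and control. The means were 759 ± 160 RPKM in hepatoma (n = 4), 1.70 ± 0.576 RPKM in regenerating liver (n = 4) and 0.510 ± 0.265 RPKM in controls (n = 3, SD). The hepatoma mean was 1488 times the control mean (8.97 ± 0.23 in log2(RPKM + 1), SE) and 446 times the mean of regenerating liver (8.13 ± 0.19). The mean of regenerating liver was 3.34 times that of the controls (0.83 ± 0.19), and both comparisons use the same 3 controls.

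With control levels under 1 RPKM, the size of these log2 differences depends on the pseudocount. With a pseudocount of 0.1 in place of 1, they were 10.36 for hepatoma and 1.61 for regenerating liver. With library medians set equal they were 7.30 for hepatoma and 0.21 for regenerating liver. Leaving out hepatoma libraries 3 and 4, an alternative chosen after seeing the data, gave 9.19 ± 0.22 for hepatoma. Both held less Akr1b8 than the other hepatomas, so leaving them out could only raise the difference. The part of hepatocyte RNA in the level of Akr1b8 was not tested. Akr1b8 ranked 110th to 148th of 9082 listed genes in the hepatomas, against 6752nd to 7522nd in the controls.

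Beside Akr1b8 stood its relative Akr1b1, aldose reductase, which turns glucose into sorbitol. Akr1b1 had 284, 376, 219 and 222 RPKM in hepatomas, against 4.80, 3.89 and 4.49 RPKM in controls, and rose (5.65 ± 0.23, limma adjusted p = 3.2e-07). Akr1b8 was 2.84, 2.49, 2.53 and 3.33 times Akr1b1 in hepatomas, and 0.112, 0.0599 and 0.169 times Akr1b1 in controls. In regenerating liver Akr1b1 had 11.2, 9.53, 9.06 and 6.17 RPKM (0.87 ± 0.17, limma adjusted p = 0.041), and Akr1b8 was 0.115, 0.198, 0.132 and 0.395 times as abundant. Akr1b8 was therefore the more abundant of the pair in hepatoma and the less abundant in every regenerating and control liver. The call for Akr1b1 in regenerating liver was lost in 6 of the 7 fits that left out 1 library, all but that without regenerating library 4 (adjusted p of 0.085 to 0.155), and with library medians set equal.

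In the rat genome annotation (RefSeq, GRCr8) the genes run in the order Akr1b1, Akr1b8, Akr1b10 and Akr1b7 on chromosome 4. Akr1b10 and Akr1b7, close copies, are listed in neither rat table. How reads that fit several of them were assigned is not given in the sources used here, so the split between copies is uncertain.

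The promoters of the rat genes with the opposite changes in hepatoma are shown so that their base composition can be compared. Each runs from 250 bases before to 50 bases after the gene start, 5′ to 3′ (RefSeq, GRCr8). Capitals mark GC boxes (GGGCGG on either strand) and CCAAT boxes (CCAAT on either strand), and no match overlaps another.
Akr1b8, plus strand, chr4:63964171-63964470: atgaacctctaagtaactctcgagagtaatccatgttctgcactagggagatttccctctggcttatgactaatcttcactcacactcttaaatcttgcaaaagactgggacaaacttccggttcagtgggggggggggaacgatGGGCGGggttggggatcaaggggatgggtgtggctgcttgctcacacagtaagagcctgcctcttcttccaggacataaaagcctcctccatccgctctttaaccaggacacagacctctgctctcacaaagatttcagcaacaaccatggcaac
Srd5a1, plus strand, chr1:35514664-35514963: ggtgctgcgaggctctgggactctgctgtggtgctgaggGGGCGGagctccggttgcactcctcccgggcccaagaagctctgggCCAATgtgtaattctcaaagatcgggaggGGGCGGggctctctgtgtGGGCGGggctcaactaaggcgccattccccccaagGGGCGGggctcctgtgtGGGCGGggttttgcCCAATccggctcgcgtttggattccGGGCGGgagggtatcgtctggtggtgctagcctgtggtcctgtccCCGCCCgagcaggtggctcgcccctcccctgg
The Akr1b8 window held 50.3% G and C and 1 GC box, and the Srd5a1 window held 67.7% G and C, 7 GC boxes and 2 CCAAT boxes. Over all 33469 promoter windows of the same length the median was 51.7% G and C. A GC box was in 33.1% of them, a CCAAT box in 37.5%, and at least 7 GC boxes in 0.520%. The antioxidant response element TGACNNNGC (12.1% of windows), the AP-1 motif TGANTCA (7.33%) and the TATA box TATAAA (14.2%) had no match in either window on either strand.

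The wider family was read from a fit across each whole table, with a call at a limma adjusted p under 0.05. In DEN livers with tumours, all 6 tested aldo-keto reductases other than Akr1c18 fell, with a median log2 difference of -1.33, against -0.56 over all 3684 tested genes. Over all tested genes 49.5% fell, 17.9% rose and 67.3% were called in either direction. With medians of all libraries equal, 614 were lower and 912 higher, in place of 1823 lower and 658 higher. Besides Akr1c6, Akr1c14 and Akr1d1 these were Akr1a1, the general aldehyde reductase (194, 225 and 197 RPKM with tumours, against 421, 421 and 342 RPKM before tumours), Akr7a5, an aflatoxin aldehyde reductase (72.6, 63.2 and 63.2 RPKM with tumours, against 113, 113 and 116 RPKM before tumours), and Akr1c19 (13.5, 9.28 and 12.5 RPKM with tumours, against 20.3, 22.9 and 34.8 RPKM before tumours). None of these came near the change of Akr1c18, and 2 of the 6 were still called lower when library medians were set equal. Without library 2 before tumours 3 of the 6 were called lower, and Akr1c19 was among those lost. Kcnab2, a potassium channel subunit of the same fold, stayed under 1 RPKM in every mouse library and was not tested.

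In the Morris hepatoma the family split. Of 8 tested aldo-keto reductases other than Akr1b8, 3 rose, 4 fell and 1 did not pass, with a median of -2.29, against 1.58 over all 8233 tested genes. Over all tested genes 85.5% rose, 8.73% fell and 94.3% were called in either direction. Once library medians were equal, 2029 were higher and 2389 lower, in place of 7042 higher and 719 lower. The 3 that rose were Akr1b1, Akr1a1 (709, 945, 558 and 616 RPKM in hepatomas, against 216, 214 and 151 RPKM in controls; 1.86 ± 0.25) and Kcnab2 (6.25, 8.21, 4.14 and 3.37 RPKM in hepatomas, against 0.298, 0.309 and 0.328 RPKM in controls; 2.25 ± 0.24). Akr1b1 alone kept its call when library medians were set equal. The 4 that fell were Akr1c14, Akr1c3, Akr1e2, an anhydrofructose reductase (4.25, 5.05, 11.5 and 7.53 RPKM in hepatomas, against 56.3, 54.5 and 17.1 RPKM in controls; -2.34 ± 0.49), and Akr1c2 (0.0400 RPKM, no reads, 0.834 and 0.334 RPKM in hepatomas, against 9.01, 5.73 and 2.33 RPKM in controls; -2.27 ± 0.39). Without control library 2, which held the highest or second highest levels of these genes, 2 genes of the family were called lower. No tested gene of the AKR1C or AKR1D branch rose. In the same libraries the summed hepatocyte markers were lower than in controls, although 1 of 10 tested markers passed the threshold (11 were called lower when hepatoma libraries 3 and 4 were left out), and the part of these cells in the falls was not tested.

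**Figure D3:**
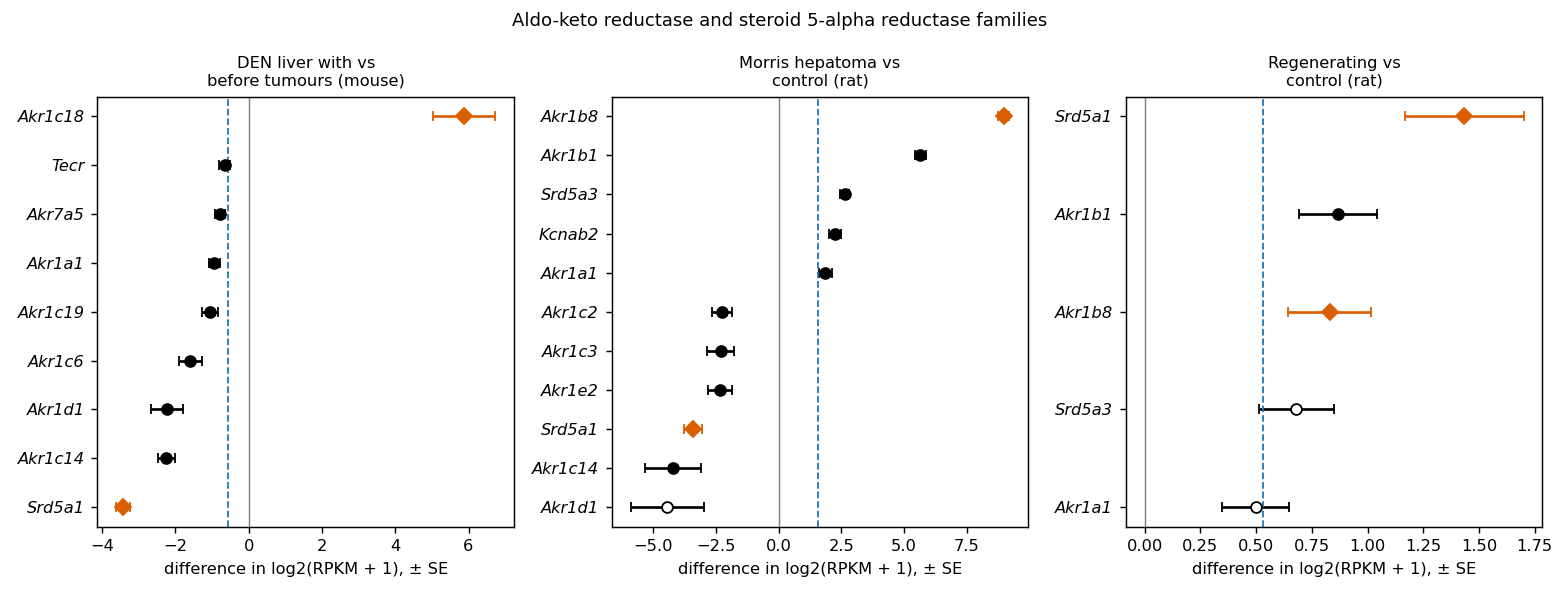
Difference in log2(RPKM + 1) with its SE for every fitted gene of both families; diamonds are Akr1b8, Akr1c18 and Srd5a1, which were not tested, filled circles passed the threshold and open circles did not, and the dashed line is the median of all tested genes. Akr1c18 (5.87) and Akr1b8 (8.97) stand above the rest of their family, and Srd5a1 lies at -3.42 and -3.41 in the tumour comparisons and at 1.43 in regeneration.

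The makeup of the family total shows how far these genes moved within it. In control rat livers Akr1c14 (42.4% ± 3.81), Akr1d1 (25.9% ± 1.89) and Akr1a1 (24.6% ± 6.66) made up most of the summed RPKM of the 10 listed aldo-keto reductases (SD, n = 3). In the hepatomas Akr1b8 made up 44.3%, 41.2%, 37.9% and 44.4% of it, against 0.0532%, 0.0219% and 0.163% in controls. Akr1a1 (38.9% ± 1.89) and Akr1b1 (15.1% ± 1.34) held most of the rest in hepatomas, and Akr1c14 held 1.90% ± 2.05 (SD, n = 4). The sum was 1822, 2277, 1458 and 1664 RPKM in hepatomas, against 1010, 1062 and 467 RPKM in controls. All hepatomas were above all controls in the sum, and Akr1a1 was a main component in both groups. The sum includes Akr1b8, which was chosen with its high level in hepatoma known. Its separation therefore does not show a higher level of the rest of the family.

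**Figure D4:**
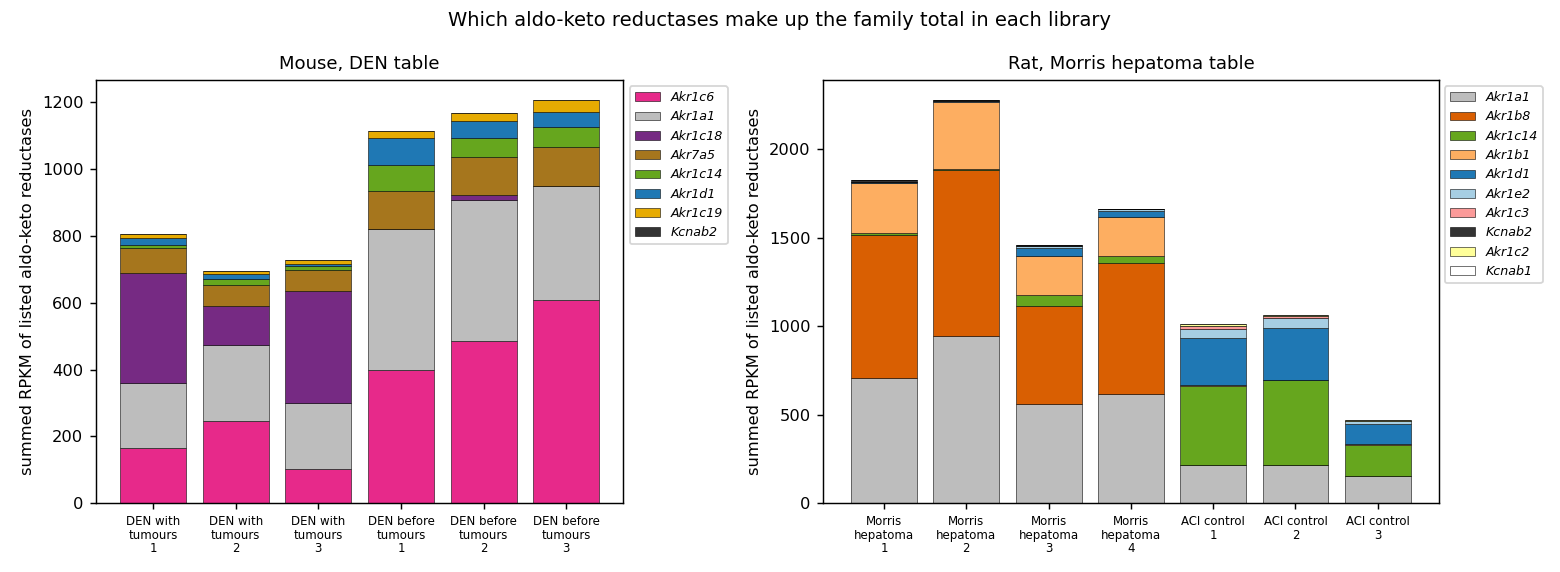
Summed RPKM of the aldo-keto reductases each table lists, per library, split by gene with the same colour for a gene in both panels. Akr1c18 fills 17.0% to 46.1% of the bar in mouse livers with tumours and at most 1.22% before tumours, and Akr1b8 fills 37.9% to 44.4% in rat hepatomas and at most 0.163% in controls.

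The 4 aldo-keto reductases listed for regenerating liver had higher means there than in controls, as did 1965 of all 2093 listed genes. The ratio of means was 1.40 for Akr1a1, 2.05 for Akr1b1 and 3.34 for Akr1b8. Of 2 tested genes other than Akr1b8, Akr1b1 rose and Akr1a1 did not pass (269, 257, 265 and 289 RPKM in regenerating livers, against 216, 214 and 151 RPKM in controls; 0.50 ± 0.15, limma adjusted p = 0.18). Over all 1703 tested genes 21.2% rose and 0.763% fell, and 22.0% were called in either direction. Equal library medians left 19 genes higher and 59 lower, in place of 361 higher and 13 lower. Kcnab3 was under 1 RPKM throughout, with no reads in any control.

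Genes that make and inactivate steroids were read from lists chosen with earlier results of these data known. Some of them, such as Hsd3b5, Ugt2b1 and Sult2a1, are also on the male- or female-predominant lists below, so the counts of these lists are not independent. In DEN livers with tumours, 6 of 11 tested genes for steroid synthesis and hydroxysteroid dehydrogenases fell, 1 rose and 4 did not pass (median -1.12), a share near the 49.5% of all tested genes that fell. Hsd3b5, a 3-ketosteroid reductase of male mouse liver, averaged 5.21 ± 3.63 RPKM with tumours and 89.3 ± 40.3 RPKM before tumours (SD, n = 3 each; -3.97 ± 0.61, limma adjusted p = 0.0086), a call lost without library 3 with tumours (adjusted p = 0.060). Por, which passes electrons to cytochromes P450, averaged 58.4 ± 8.99 RPKM with tumours and 281 ± 126 RPKM before tumours (-2.15 ± 0.34, limma adjusted p = 0.0068). Of 10 tested genes for steroid conjugation 9 fell and 1 did not pass (median -1.61). The largest fall was in Sult1e1, the estrogen sulfotransferase, with 0.9005 ± 0.702 RPKM with tumours and 23.5 ± 6.42 RPKM before tumours (-3.73 ± 0.33, limma adjusted p = 0.00084). Of 8 tested receptor genes 6 fell and 2 did not pass (median -0.75), among them Nr1i3, which encodes the TCPOBOP receptor CAR (8.05 ± 4.03 RPKM with tumours and 17.8 ± 1.79 RPKM before tumours; -1.14 ± 0.28, limma adjusted p = 0.035). The call for Nr1i3 was lost in 5 of the 6 fits that left out 1 library (adjusted p of 0.081 to 0.140), and 1 of the 8 receptor genes was called lower when library medians were set equal. Without library 3 with tumours, or without library 1 before tumours, 3 receptor genes were called lower.

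Genes that differ between male and female mouse liver were also read in these male mice, though few female-predominant genes could be tested. Over all tested genes 49.5% fell and 17.9% rose. Of 20 tested male-predominant genes 19 fell and 1 did not pass (median -3.65), led by the major urinary protein genes Mup17, Mup16, Mup1 and Mup7 (log2 differences of -6.70, -5.78, -5.23 and -5.04). The Mup genes are near-identical copies, so the split of reads between them is uncertain. Of the 20 female-predominant genes looked for, 4 are listed in mice and 3 were tested, and of these 2 rose and 1 did not pass. Cyp2a4, a steroid hydroxylase, averaged 2919 ± 1528 RPKM with tumours and 100.002 ± 127 RPKM before tumours (5.57 ± 0.93, limma adjusted p = 0.012), and this call was lost without the third library with tumours (adjusted p = 0.127). Nt5e, an ecto-nucleotidase, averaged 5.08 ± 2.24 RPKM with tumours and 1.10 ± 0.0754 RPKM before tumours (1.47 ± 0.26, limma adjusted p = 0.0091).

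In the Morris hepatoma, 85.5% of all tested genes rose and 8.73% fell. Of 14 tested genes for steroid synthesis and hydroxysteroid dehydrogenases 7 fell, 3 rose and 4 did not pass (median -2.30). Hsd17b2, which inactivates estradiol and testosterone, averaged 5.34 ± 5.46 RPKM in hepatomas (n = 4) and 72.8 ± 42.3 RPKM in controls (n = 3; -3.84 ± 1.03, limma adjusted p = 0.035). Dhrs9, a retinol and steroid dehydrogenase, had 8.40 ± 2.11 RPKM in hepatomas and no reads in any control. Of 11 tested conjugation genes 6 fell, 1 rose and 4 did not pass (median -4.07), and Sult1e1 averaged 7.77 ± 6.84 RPKM in hepatomas and 195 ± 93.8 RPKM in controls (-4.86 ± 1.01, limma adjusted p = 0.012). These falls were sensitive to single libraries: without control library 1 or without control library 2, none of the conjugation genes and 4 of the steroid synthesis genes were called lower, and the call for Hsd17b2 was lost as well (adjusted p of 0.098 to 0.137, also without hepatoma library 1). In the same libraries 6 of 11 tested male-predominant genes fell, 1 rose and 4 did not pass (median -4.98). Of 4 tested female-predominant genes 2 fell, Hao2 (-4.96 ± 1.36) and Sult2a1 (-4.07 ± 0.99), 1 rose and 1 did not pass. Without control library 1 or 2 the lower calls were 1 male-predominant and 0 female-predominant genes. Of 7 tested receptor genes 3 rose, 3 fell and 1 did not pass. Ahr, the dioxin receptor, rose (31.6 ± 4.44 RPKM in hepatomas and 5.04 ± 1.61 RPKM in controls; 2.45 ± 0.21, limma adjusted p = 7.8e-06). Of the 3 receptor genes called lower, 1 was left without control library 1 and 0 without control library 2.

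Aldehyde and carbonyl reduction, the reaction type of Akr1b8, was also covered by enzymes of other families. In the Morris hepatoma 8.73% of all tested genes fell and 85.5% rose. Of 18 tested carbonyl and lipid aldehyde enzymes 13 fell, 3 rose and 2 did not pass (median -2.24). Without hepatoma library 2, control library 1 or control library 2, the lower calls were 8, 5 and 4. Cbr1, a carbonyl reductase of prostaglandins and quinones, went with Akr1b8 and averaged 76.1 ± 14.9 RPKM in hepatomas and 8.11 ± 1.40 RPKM in controls (3.07 ± 0.21, limma adjusted p = 2.0e-06). Dcxr, a carbonyl reductase of sugars, went against it, with 12.2 ± 7.90 RPKM in hepatomas and 273 ± 184 RPKM in controls (-4.20 ± 0.86, limma adjusted p = 0.010). In DEN livers with tumours 15 of 16 tested genes of this list fell and 1 did not pass (median -1.12). Over all tested genes there 49.5% fell. The list was led by Aldh1a1, a retinaldehyde dehydrogenase (121 ± 55.4 RPKM with tumours and 1039.8 ± 241 RPKM before tumours; -3.19 ± 0.37, limma adjusted p = 0.0020). Of the 16, 6 were called lower when library medians were set equal.

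NRF2, the transcription factor of the oxidant response, has several aldo-keto reductases among its known targets, so its other targets were listed. In the Morris hepatoma 16 of 19 tested targets rose, 1 fell and 2 did not pass. Their median of 1.61 was close to the 1.58 of all tested genes, and with library medians set equal 5 were called higher and 3 lower. Gstp1, a glutathione transferase, averaged 5680.2 ± 2139 RPKM in hepatomas and 35.1 ± 23.0 RPKM in controls (7.36 ± 0.49, limma adjusted p = 4.6e-06). In DEN livers with tumours 5 of 12 tested targets fell, 1 rose and 6 did not pass (median -0.95), against 49.5% lower and 17.9% higher over all tested genes. The gene that rose was Srxn1, a sulfiredoxin (127 ± 53.9 RPKM with tumours and 31.5 ± 8.05 RPKM before tumours; 1.93 ± 0.31, limma adjusted p = 0.0066). Of the prostaglandin genes, 8 of 12 tested rose and 3 fell in the Morris hepatoma (median 0.70). There 85.5% of all tested genes rose and 8.73% fell. In DEN livers with tumours 2 of 4 prostaglandin genes fell (median -1.29), with 1 of these left without library 3 with tumours or library 1 before tumours.

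Few genes of these lists were tested in regenerating liver. Adh1, an alcohol dehydrogenase, rose and had 1681 ± 163 RPKM in regenerating livers (n = 4) and 514 ± 93.9 RPKM in controls (n = 3; 1.72 ± 0.16, limma adjusted p = 0.0026). Por averaged 102 ± 13.3 RPKM in regenerating livers and 48.9 ± 3.13 RPKM in controls (1.03 ± 0.14, limma adjusted p = 0.011). Sult2a6, a hydroxysteroid sulfotransferase, averaged 118 ± 21.1 RPKM in regenerating livers and 37.7 ± 22.4 RPKM in controls (1.75 ± 0.32, limma adjusted p = 0.040). Both calls were lost when library medians were set equal and without control library 1 or 2 (adjusted p of 0.057 to 0.156), and that for Sult2a6 also without regenerating library 1, 2 or 4. No tested gene of these lists was called lower, and only 0.763% of all tested genes were. Hsd11b1, Nr3c1 and Hsd17b6 had lower means than in controls (ratios of 0.426, 0.615 and 0.748) without passing. All other listed genes of these lists had higher means. No male- or female-predominant gene was tested.

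**Figure D5:**
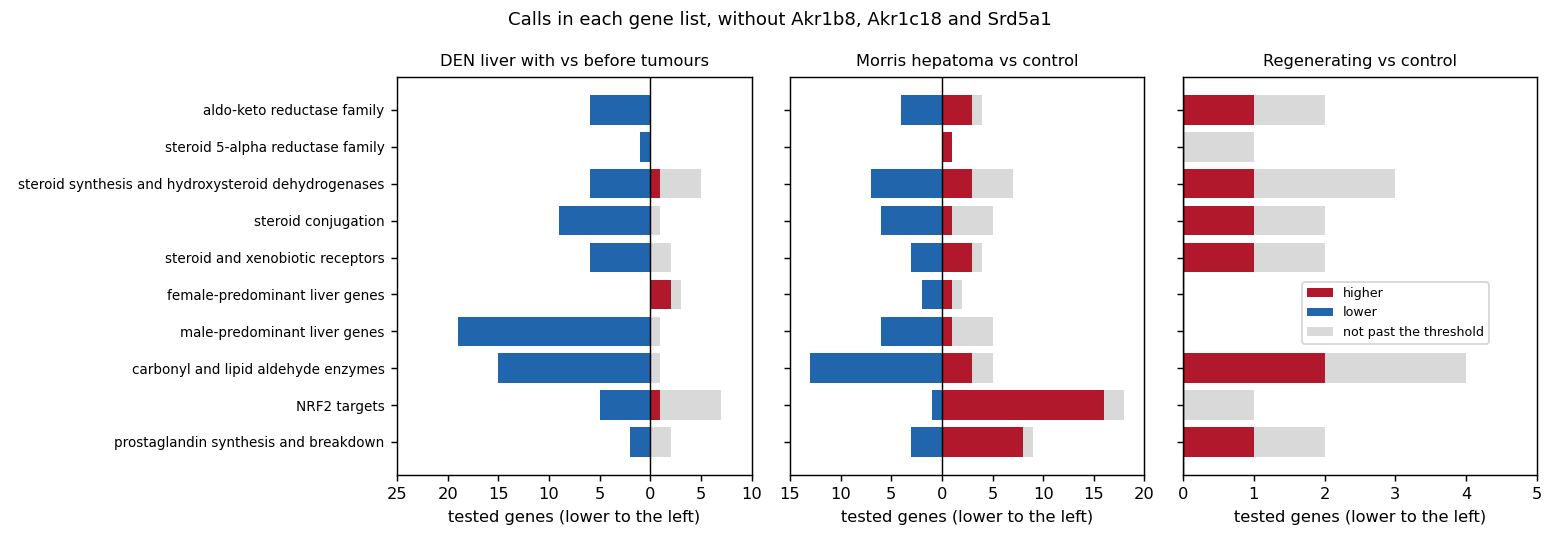
Number of tested genes in each list that were called higher (right, red), lower (left, blue) or not past the threshold (right, grey), without Akr1b8, Akr1c18 and Srd5a1; each panel has its own scale. Carbonyl and lipid aldehyde enzymes are mostly on the lower side in both tumour comparisons (15 of 16 in DEN and 13 of 18 in Morris). In these comparisons 49.5% and 8.73% of all tested genes fell. NRF2 targets are on the higher side in the Morris hepatoma (16 of 19), where 85.5% of all tested genes rose.

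Summed markers of other cell types also differed between some of the groups. In hepatomas the summed markers of fibroblasts and stellate cells ran from 471 to 1195 RPKM, against 20.2 to 84.6 RPKM in controls, and those of macrophages from 745 to 1353 RPKM, against 161 to 198 RPKM in controls. Of the 5 macrophage markers tested there, 3 were called higher, 1 lower and 1 did not pass, while 85.5% of all tested genes rose and 8.73% fell. In DEN livers the 2 listed fibroblast markers summed to 13.4 to 22.2 RPKM with tumours, against 4.53 to 7.20 RPKM before tumours, and the 5 listed macrophage markers to 83.8 to 115 RPKM with tumours, against 91.6 to 112 RPKM before tumours. These macrophage sums overlapped, and of 4 tested macrophage markers 2 were called higher, 1 lower and 1 did not pass. Among all tested genes of the DEN livers 17.9% rose and 49.5% fell. In regenerating livers the 3 listed fibroblast markers summed to 55.1 to 73.6 RPKM, against 17.4 to 46.3 RPKM in controls. Endothelial markers there summed to 8.46 to 15.2 RPKM, against 3.14 to 4.78 RPKM in controls. In hepatomas cholangiocyte markers summed to 196 to 277 RPKM, against 5.13 to 9.60 RPKM in controls. Endothelial markers in hepatomas summed to 45.5 to 74.7 RPKM, against 6.48 to 11.6 RPKM in controls. Lymphocyte markers summed to 3.40 to 10.3 RPKM in hepatomas, against 0.358 to 0.605 RPKM in controls. In DEN livers the 1 listed cholangiocyte marker had 7.99 to 10.9 RPKM with tumours, against 2.38 to 4.36 RPKM before tumours. Endothelial markers summed to 22.8 to 38.4 RPKM with tumours, against 14.5 to 19.9 RPKM before tumours. The 1 listed lymphocyte marker went the other way, at 0.0437 to 0.271 RPKM with tumours and 0.376 to 0.503 RPKM before tumours. The part of these cell types in the levels of Akr1b8, Akr1c18 and Srd5a1 was not tested.

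The genes whose levels followed each gene most closely over the libraries of a table were found by Pearson's r of log2(RPKM + 1), as a description. In the DEN table, over 6 libraries, these were Tspan8 (r = 0.996), H2-t10 (0.994) and Scd2 (0.994) for Akr1c18. For Srd5a1 they were Axin2 (0.9997), Hectd3 (0.999) and Agtpbp1 (0.999). An r over 0.95 was found with Akr1c18 for 3.64% of the tested genes and with Srd5a1 for 24.9%, so a close match with Srd5a1, which mainly separates the 2 groups, was common there. In the Morris table, over 7 libraries, Spp1 (0.9998), Kif18b (0.9996) and Metrn (0.9994) were closest to Akr1b8, where 61.9% of tested genes passed 0.95. Spp1 is also among the cholangiocyte markers used above. Aadac (0.993), Gnpnat1 (0.993) and Slco1a1 (0.992) were closest to Srd5a1, where 4.03% did. In the regeneration table, over 7 libraries, Tacc3 (0.990), Pmp22 (0.989) and Rpa2 (0.987) were closest to Akr1b8, and Eci3 (0.996), Prodh2 (0.995) and Ces2e (0.994) to Srd5a1, with 8.52% and 7.40% of tested genes over 0.95.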

How the data were processed

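The authors deposited 3 tables with a value per gene and library, read here as RPKM, in which 0.001 marks genes without reads. Per the file headers the tables also hold a log2 ratio of group means, which the recomputed ratio matched to 0.01 for each gene. They also hold a deposited p-value, which is below 0.05 throughout. Aligner, genome build and counting are not given in the sources used here. Of the hepatoma rows, 1 names no gene and was dropped. Akr1b8, Akr1c18 and Srd5a1, the gene lists and the comparisons were chosen with earlier results of these data known.

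The fit used limma 3.58.1 with an intensity trend and robust variance shrinkage (R 4.3.3, two-sided tests) on log2(RPKM + 1), on which changes of low genes appear smaller. A gene was tested if it reached 1 RPKM in enough libraries to fill the smaller group. Because listed genes were preselected, Benjamini-Hochberg adjustment took the number of annotated coding genes, 21951 for mice and 23154 for rats, and a call needed an adjusted p under 0.05. Akr1b8, Akr1c18 and Srd5a1 were fitted without a test. The fit was tested on simulated data. The text names the tested genes of both families and, from each other list, called genes among the 4 with the largest change. Alternatives were another pseudocount, filter, scaling or adjustment, the replicate number as a block, a joint fit of the rat groups, and leaving out libraries. Depth was known only relative to 1 library, so no counting intervals are given. Python 3.11.15 with numpy 2.4.6, pandas 2.3.3 and matplotlib 3.10.9 did the remaining work.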

Additional observations from a re-analysis of the deposited data

Results flagged for a closer look

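Akr1a1 moved in opposite directions in the tumour models. Its log2 difference was -0.94 in DEN livers with tumours against before tumours and 1.86 in Morris hepatoma against control, and every library followed its group's direction. It was the only one of 5 family genes listed in both tables that did so. The difference between the models was not tested.

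Of 54 gene groups of 4 libraries examined, 3 had 1 library far from the others, and chance alone is expected to give a flag in about 1 of 20 groups. Gstp1 had 2484 RPKM in hepatoma library 3 and 6606 to 7007 RPKM in the other hepatomas, a gap of 0.911 of the whole range. Abcc1 had 15.5 RPKM in hepatoma library 1 and 6.09 to 7.60 RPKM in the others, a gap of 0.839. Rxra had 74.1 RPKM in regenerating library 3 and 50.8 to 54.8 RPKM in the others, a gap of 0.830. None of these is Akr1b8, Akr1c18 or Srd5a1.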

How the results depend on the processing

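The differences of Akr1b8, Akr1c18 and Srd5a1 kept their direction under every alternative tried, and the sizes that moved are these. Under equal library medians Srd5a1 was at -3.03 (DEN), -5.08 (Morris) and 0.81 (regenerating), and Akr1b8 at 7.30 (Morris) and 0.21 (regenerating). With quantile normalization, Srd5a1 was at -2.91 (DEN) and -4.44 (Morris), and Akr1b8 at 7.81 (Morris) and 0.12 (regenerating). With a pseudocount of 0.1, Akr1b8 was at 10.36 (Morris) and 1.61 (regenerating). Each of these scalings uses preselected genes, and so removes any shift they have in common. Leaving out 1 library at a time moved none of these differences by more than the replicate spread.

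Counts of called aldo-keto reductases depended on the settings. In DEN the 6 lower calls became 2 with library medians set equal and 1 with quantile normalization, and ranged from 3 to 6 when 1 library was left out (3 without library 2 before tumours), and 1 higher call appeared with no filter. In Morris the 3 higher calls became 1 with library medians set equal. The 4 lower calls became 2 with a filter at 5 RPKM, and ranged from 2 to 5 when 1 library was left out (2 without control library 2). All 3 rat groups in 1 fit gave 0. That fit could not call these 4 genes, since it covered only genes in both rat tables and none of them is listed for regenerating liver. In regenerating liver the 1 higher call became 0 with a filter at 5 RPKM, library medians set equal, quantile normalization or all 3 rat groups in 1 fit, 2 with adjustment over the tested genes, and 0 to 1 when 1 library was left out. Of the 5-alpha reductase family, Tecr kept no call in DEN with library medians set equal (0 calls) or quantile normalization (0 calls, sign reversed to 0.14), and 0 to 1 calls remained when 1 library was left out. Srd5a3 in regenerating liver gained its call (1) with adjustment over the tested genes. The causes were not tested.

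In the other lists, setting library medians equal left 6 of 15 lower carbonyl calls and 1 of 6 lower receptor calls in DEN, and 5 of 16 higher NRF2 calls in Morris, where it raised the lower calls for steroid synthesis to 13 from 7 and for conjugation to 10 from 6. A joint fit of all 3 rat groups covered only genes in both rat tables. The regeneration table lists 5 carbonyl, 3 steroid synthesis, 2 conjugation and 0 male-predominant genes. In that fit the lower calls in Morris were 3 of 13 for carbonyl enzymes and 0 for the other 3 lists. Genes outside the fit could not be called, so these counts do not show how many calls were lost. Without control library 1 or 2, the lower carbonyl calls in Morris were 5 and 4. Leaving out hepatoma libraries 3 and 4 raised the lower calls to 11 for steroid synthesis and to 10 for both conjugation and male-predominant genes.

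Library numbers did not pair the samples: deviations of same-numbered libraries correlated at -0.16 to -0.02 in DEN, -0.22 to -0.15 in Morris and -0.32 to 0.15 in regeneration. A fit with the replicate number as a block gave 0 lower aldo-keto reductase calls in Morris, 0 higher in regenerating liver and 0 lower calls for the 5-alpha reductase family in DEN, and over all genes 536 higher and 1436 lower in DEN, 6725 and 242 in Morris, and 23 and 2 in regenerating liver. The number of libraries (3 or 4 a group) and the unknown counts limit the precision of low genes such as Akr1b8 in control liver.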
